A study of Mus musculus with 4 samples.

Results

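The serpins are a family of proteins built on one fold, most of which block serine or cysteine proteases, and mouse genes of the family carry symbols that start with Serpin followed by a letter for the clade. Members were all genes whose symbol starts with Serpin, found on the array through the RefSeq identifier of each probe, and the probe that stands for a gene with several was chosen by its mean signal over the arrays, the brightest being kept. The measured signals thus chose the probes, while the symbols chose the genes. The reference table of mouse genes gave 68 such symbols, of which 59 had a probe, 74 probes in all. These comprised 23 genes of clade a, 27 of clade b and 9 of clades c to i, among 32388 genes and unnamed identifiers on the array, and 30 of the 59 were bright enough to test.

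Gene expression was measured on 4 one-colour Agilent arrays of mouse cardiomyocytes derived from embryonic stem cells of the CGR8 line, an established line. All cultures were held in low-glucose DMEM with 2% serum and transfected for 48 hours with the agent Pepmute. The siScr group (2 samples) received a scrambled siRNA, which targets no gene, and the siErbB4 group (2 samples) an siRNA against Erbb4, the gene of a neuregulin receptor, so that both groups had been transfected. The samples are named by group and replicate number: siScr 1, siScr 2, siErbB4 1 and siErbB4 2. The labels do not say what the number stands for or that the samples came from separate cultures, so p-values measure the spread between these samples, which may be technical. They give a pair of alternative incubation times without saying which sample had which. The labels also disagree among themselves: each siErbB4 sample has a description that names the scrambled siRNA, and the source name of siErbB4 2 names si-ErbB5. The groups below follow the sample titles.

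All 4 arrays lay on 1 slide, with both number 1 samples at positions 3 and 4 and both number 2 samples at positions 1 and 2, so replicate number and slide position cannot be told apart. Between 64.8% and 68.5% of probes were well above background, no spot was saturated, and the 75th percentile of signal, to which each array was scaled, ran from 878 to 989. The 1 probe for Erbb4 was well above background only on siErbB4 2, with a signal of 15.0 against 9.02 on siScr 1, 11.9 on siScr 2 and 2.83 on siErbB4 1, so the knockdown cannot be checked on these arrays and siErbB4 is used as a label. Cardiomyocyte markers were bright: all 15 listed genes were tested, and Myh6, a cardiac myosin heavy chain, stood at 207 on siScr 1, 267 on siScr 2, 213 on siErbB4 1 and 241 on siErbB4 2. These and all following relative signals are multiples of the array's 75th percentile signal.

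An inhibitory serpin offers its target protease an exposed loop as bait. When the loop is cut, the serpin folds around the bound enzyme and traps it permanently, so that both molecules are spent. Clade a holds proteins that the liver secretes into plasma, such as alpha-1-antitrypsin. Clade b proteins lack a classical signal peptide and act mostly inside cells against stray granule and lysosomal proteases. The smaller clades hold regulators of clotting, clot lysis and complement, and a collagen chaperone of the endoplasmic reticulum that inhibits no protease.

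Of the 59 members with a probe, 23 were not well above background on any array, 28 were well above it on all 4 and 8 on some. To be tested a feature needed a probe that cleared background on the pair of arrays of siScr, of siErbB4 or of each, which 13 members of clade a, 10 of clade b and 7 of the other clades met. Serpina3m and Serpinc1 met it only through the siErbB4 arrays, so a higher value there is partly built into their selection. The 29 members that were not tested included Serpina1d, Serpinb9c, Serpinb9g and Serpind1, the gene of heparin cofactor II, each above background on some arrays. They also included Serpinb1b and Serpinb9f, both well above background on both number 1 arrays and on neither number 2 array. Serpinb1b had signals of 17.6 on siScr 1, 14.0 on siErbB4 1, 9.05 on siScr 2 and 8.14 on siErbB4 2, at least 1.41-fold higher in replicate 1. Serpinb9f had 18.8, 22.0, 9.91 and 11.5 on the same arrays, at least 1.63-fold higher in replicate 1. Each bound sets the mean of the number 1 arrays against the mean, over the number 2 arrays, of the higher of the probe's own signal and the lowest signal well above background, which was 12 on siScr 2 and 9.14 on siErbB4 2. The remaining 9 symbols, among them Serpina1b, Serpina3g and Serpine3, had no probe among those named here.

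More serpin genes passed the test between the replicate numbers (6) than between the siRNAs (0). Between replicate 2 and replicate 1, 5 tested members were lower and 1 was higher at an adjusted p under 0.05 (limma, Benjamini-Hochberg over all 20726 features tested) among 30 members. Among all features tested 5.23% passed, made up of 2.34% lower and 2.89% higher, and 16.7% of the serpin genes passed as lower. The 5 were Serpinb1a, Serping1, Serpinb1c, Serpina3n and Serpina3f, which were 3.64-fold to 16.9-fold lower in replicate 2, and the gene that was higher was Serpinb6b. Groups of 2 arrays did not overlap between the numbers for 18 of 30 members (14 of them lower), against 55.4% of all features (26% lower). A difference of at least 1 on the log2 scale was reached by 6 members, against 5.27% of all features. With 2 arrays a side the smallest two-sided p of an exact permutation test is 0.333, so each call rests on the spread that limma shares across features. All 6 calls were lost when siScr 1 or siScr 2 was left out, when no feature on the array passed, 1 call (Serpinb1a) remained without siErbB4 2, and 8 members passed without siErbB4 1.

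**Figure D1:**
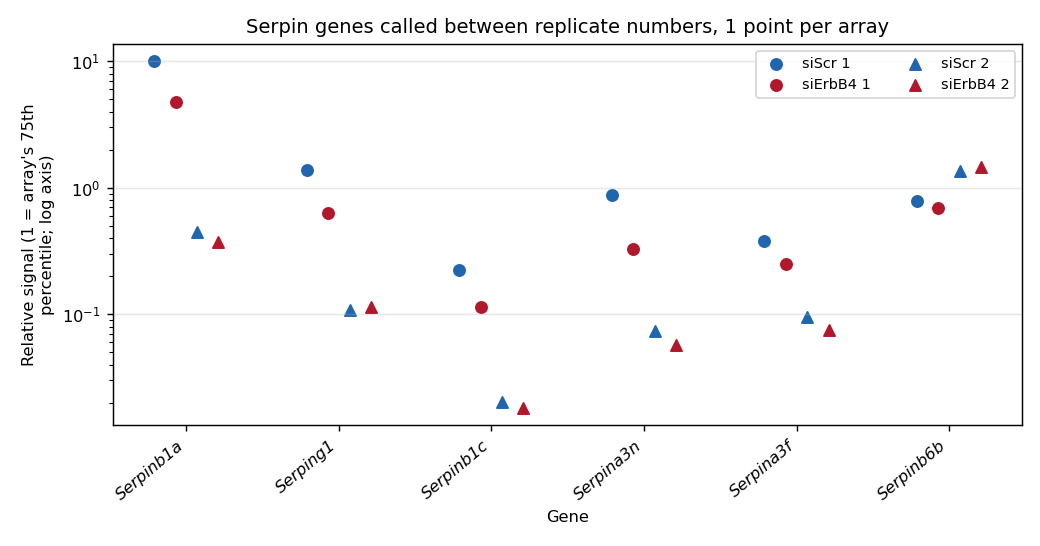
Relative signal (log axis, 1 = the array's 75th percentile) of the 6 Serpin genes with adjusted p under 0.05 between replicate numbers, 1 point per array, circles for number 1 and triangles for number 2. For Serpinb1a to Serpina3f both circles lie above both triangles, and for Serpinb6b both lie below.

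Clade b, the intracellular inhibitors, held the largest difference and the only rise among the members that passed. Serpinb1a encodes a mouse counterpart of leukocyte elastase inhibitor, which acts on neutrophil granule proteases. Its relative signal was 10 on siScr 1 and 4.75 on siErbB4 1, but 0.447 on siScr 2 and 0.374 on siErbB4 2. Both number 1 arrays were thus far above both number 2 arrays, and the siScr arrays were the farther apart, 22.4-fold against 12.7-fold for siErbB4. The log2 difference of replicate 2 from replicate 1 was -4.08 (SE 0.37, limma adjusted p = 0.0208), the lowest of all 20726 features. Its close relative Serpinb1c showed the same order, with 0.223 on siScr 1, 0.115 on siErbB4 1, 0.0203 on siScr 2 and 0.0181 on siErbB4 2. The difference of -3.06 (SE 0.33, limma adjusted p = 0.0252) was 8.33-fold, and shrank to -1.46 with a normexp background correction (adjusted p = 0.00437).

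Serpinb6b, of the group related to the cathepsin G inhibitor of human clade b, went the other way. It read 0.786 on siScr 1, 0.688 on siErbB4 1, 1.36 on siScr 2 and 1.45 on siErbB4 2. The number 2 arrays were both higher, by 0.93 on the log2 scale (SE 0.13, limma adjusted p = 0.0323), a 1.91-fold rise. The 4 other tested genes of this group did not pass. Serpinb6a gave 22.4 on siScr 1, 19.1 on siScr 2, 18.5 on siErbB4 1 and 18.2 on siErbB4 2, a difference of -0.12 between the numbers (SE 0.14, limma adjusted p = 0.652). Serpinb6c gave 18.8, 15.5, 16.1 and 15.9 in that order, a difference of -0.15. For both genes the spread within the number 1 pair was larger than the gap between the pairs. Serpinb8, which inhibits furin, was at 12.3 and 14.1 on the number 1 arrays and 16.4 and 16.5 on the number 2 arrays, which did not overlap, yet the difference of 0.32 did not pass (limma adjusted p = 0.217). Serpinb9, an inhibitor of granzyme B, lay between 0.319 and 0.362 on all 4 arrays. Over the 10 tested clade b genes the median difference was -0.06, against 0.02 over all features, with 2 lower and 1 higher after adjustment.

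In clade a the 2 genes that passed were of the Serpina3 group, whose human counterpart is the acute-phase protein alpha-1-antichymotrypsin, and none was of the Serpina1 group of alpha-1-antitrypsin. Serpina3n, an extracellular inhibitor of granzyme B and cathepsin G, had a relative signal of 0.884 on siScr 1 and 0.330 on siErbB4 1. On siScr 2 it fell to 0.0741 and on siErbB4 2 to 0.0575. These groups did not overlap, and the difference was -3.05 (SE 0.49, limma adjusted p = 0.0454), 8.27-fold. Serpina3f read 0.380 on siScr 1, 0.252 on siErbB4 1, 0.0952 on siScr 2 and 0.0758 on siErbB4 2. Again both number 1 arrays were higher, with a difference of -1.86 for replicate 2 (SE 0.25, limma adjusted p = 0.0315). Normexp correction shrank the differences, to -2.18 for Serpina3n (limma adjusted p = 0.0117) and -1.21 for Serpina3f (adjusted p = 0.00716).

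The other 4 tested Serpina3 genes did not pass the test. Serpina3h, at 0.494 on siScr 1, 0.395 on siErbB4 1, 0.293 on siScr 2 and 0.198 on siErbB4 2, differed by -0.88 (limma adjusted p = 0.118). Serpina3i, at 0.891, 0.750, 0.603 and 0.473 on the same arrays, differed by -0.61 (adjusted p = 0.130). Serpina3b differed by -0.49 and overlapped, while Serpina3m, whose signal was near background, differed by 0.35. Over the 6 tested Serpina3 genes the median was -0.75, and 4 were lower without overlap. The 4 tested Serpina1 genes had a median of 0.17, none passed the test, and their differences ran from -0.14 for Serpina1f to 0.40 for Serpina1a. Serpina9 was at 0.379 on both siScr arrays and at 0.258 and 0.346 on siErbB4 1 and siErbB4 2, a difference of 0.21 between the numbers. Clade a as a whole, 13 tested genes, had a median of 0.03, with 2 lower after adjustment and 11 not passing.

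The called genes of clades a and b sit in clusters of duplicated genes, and 4 of the called genes have a start in the RefSeq promoter table. Serpina3f and Serpinb1c have 2 starts each there, of which the first listed was used, and the window of the other is not shown. The windows of 250 bases before the start are shown so that neighbours with unlike differences can be compared, in build GRCm38.p6. Each is given 5′ to 3′ on the strand of its gene, in lower case, with capitals for matches to the motifs named after them. Serpina3n lies on the plus strand at chr12:104406458-104406707 and Serpina3f on the plus strand at chr12:104214294-104214543. Serpinb1c lies on the minus strand at chr13:32940601-32940850 and Serpinb6b on the plus strand at chr13:32965011-32965260.
Serpina3n: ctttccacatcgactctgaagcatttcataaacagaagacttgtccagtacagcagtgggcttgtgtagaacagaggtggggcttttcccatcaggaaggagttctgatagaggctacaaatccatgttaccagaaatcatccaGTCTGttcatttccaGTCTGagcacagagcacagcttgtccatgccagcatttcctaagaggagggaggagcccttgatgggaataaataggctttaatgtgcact
Serpina3f: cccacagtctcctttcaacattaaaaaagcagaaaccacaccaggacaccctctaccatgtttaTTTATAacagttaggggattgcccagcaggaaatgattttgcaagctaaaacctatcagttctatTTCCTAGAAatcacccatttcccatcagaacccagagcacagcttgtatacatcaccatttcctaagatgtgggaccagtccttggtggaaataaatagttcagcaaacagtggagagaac
Serpinb1c: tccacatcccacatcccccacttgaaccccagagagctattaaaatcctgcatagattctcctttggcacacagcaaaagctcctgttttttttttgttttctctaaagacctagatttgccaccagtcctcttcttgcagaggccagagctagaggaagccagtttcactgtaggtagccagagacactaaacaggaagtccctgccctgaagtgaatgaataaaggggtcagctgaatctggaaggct
Serpinb6b: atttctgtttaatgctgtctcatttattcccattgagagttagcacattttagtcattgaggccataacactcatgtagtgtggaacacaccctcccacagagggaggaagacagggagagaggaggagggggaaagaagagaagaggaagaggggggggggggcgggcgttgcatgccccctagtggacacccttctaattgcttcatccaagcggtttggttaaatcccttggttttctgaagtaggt
Both strands were searched for a TATA box (TATAAA), a STAT site (TTCNNNGAA) and a SMAD box (CAGAC), and no match overlapped another in these windows. The Serpina3n window held a SMAD box on the minus strand at 106 to 102 and at 91 to 87 bases before the start. The Serpina3f window held a TATA box letter match on the minus strand at 186 to 181 bases and a STAT site match at 121 to 113 bases before the start. The Serpinb1c and Serpinb6b windows shown held none of the 3 motifs. Of 32851 windows of the same length, 42.2% held the SMAD box, 12.4% the TATA box and 7.02% the STAT site, so matches are common and describe letters only. The Serpina3n and Serpina3f windows were 63.0% identical, against 41.2% to 51.5% for the other 5 pairs. The table covers 49 of the 59 members.

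Order along the chromosome, taken from the same reference without coordinates, set the differences side by side. In a run of 28 clade a genes the 2 called genes were Serpina3f and Serpina3n. Serpina3m, the neighbour of Serpina3n, differed by 0.35 and did not pass. Its signal was near background and its direction turned with 1 array left out (-0.059 to 0.76), so it is not settled. In a run of 13 clade b genes Serpinb1a and Serpinb1c, which were lower in replicate 2, stood beside Serpinb6b, which was higher, and Serpinb9, at 0.12, which did not pass. Members of these runs are related copies, and whether a probe also binds the transcript of a neighbour was not tested.

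**Figure D2:**
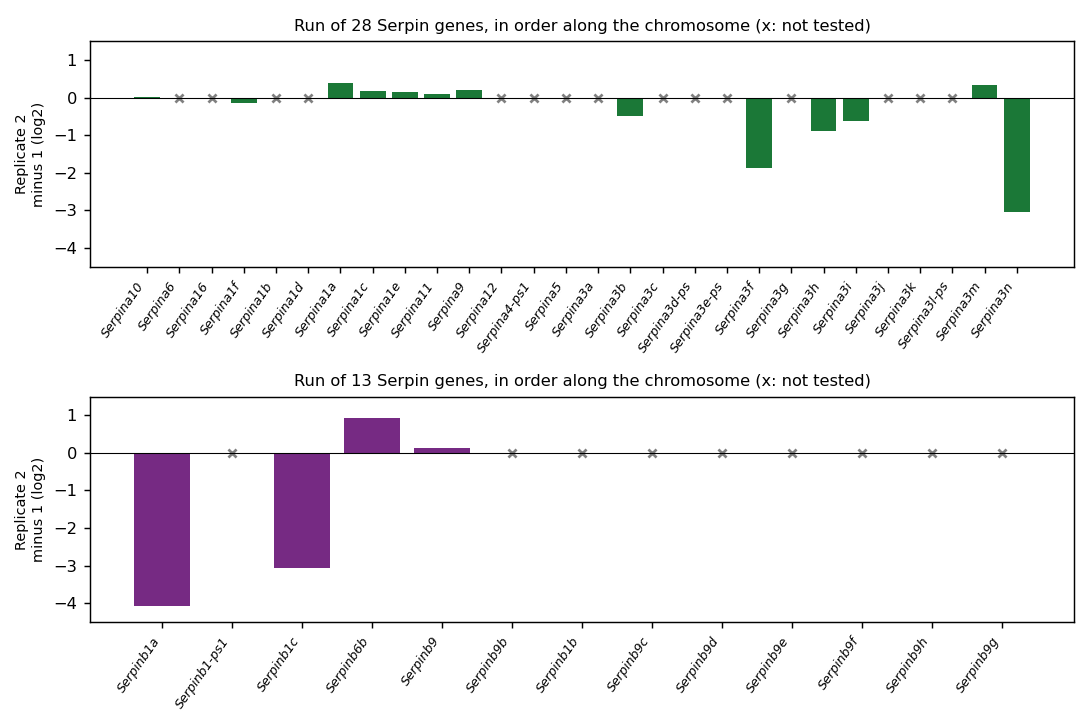
Log2 difference of replicate 2 from replicate 1 for the members of the runs of 28 (clade a, top) and 13 (clade b, bottom) neighbouring Serpin genes in chromosomal order, with crosses for members that were not tested. Bars of -3.05 for Serpina3n and -4.08 for Serpinb1a are the lowest of their runs, and Serpinb6b at 0.93 stands above 0 beside Serpinb1c at -3.06.

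All 7 tested genes reported from the smaller clades had a difference below 0 between replicate 2 and replicate 1, against 47% of all features, with a median of -0.59 and 1 passing. Of these, Serpinc1 and Serpinf2 differed by 0.080 and 0.11 within siScr and turned above 0 with normexp correction, so their direction is not settled. Serping1 encodes C1 inhibitor, which restrains the first complement component and plasma kallikrein. Its relative signal was 1.39 on siScr 1, 0.632 on siErbB4 1, 0.108 on siScr 2 and 0.113 on siErbB4 2. The number 2 arrays were close to each other and both far below the number 1 arrays, with a difference of -3.08 (SE 0.38, limma adjusted p = 0.0292), 8.47-fold. A second probe for Serping1 gave -3.29. With normexp correction the difference of the probe used shrank to -2.40 (limma adjusted p = 0.00399).

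The nearest gene to the threshold that did not pass was Serpine2, which encodes protease nexin-1, an inhibitor of thrombin and plasminogen activators. It was at 2.86 on siScr 1, 2.13 on siErbB4 1, 1.44 on siScr 2 and 1.29 on siErbB4 2, without overlap, a difference of -0.86 (SE 0.18, limma adjusted p = 0.0728). With normexp correction its adjusted p was 0.0173, and with transfection as a block 0.0392, and without siErbB4 1 0.0404. Serpinf1, the gene of pigment epithelium-derived factor, which inhibits no protease, was at 0.783 on siScr 1 and at 0.321, 0.252 and 0.211 on siErbB4 1, siScr 2 and siErbB4 2. Its difference of -1.12 had a 95% interval from -2.27 to 0.03 (limma adjusted p = 0.227), and siScr 1 stood apart. Without siErbB4 1 its adjusted p was 0.0321. Serpini1, the gene of neuroserpin, an inhibitor of tissue plasminogen activator, was at 0.0881 and 0.113 on the number 1 arrays and 0.0669 and 0.0651 on the number 2 arrays, a difference of -0.59 (limma adjusted p = 0.113).

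Serpinh1, the gene of the collagen chaperone HSP47, gave a bright signal on every array and did not pass. It was at 33.1 on siScr 1, 29.1 on siScr 2, 31.4 on siErbB4 1 and 26.1 on siErbB4 2. The difference of -0.23 had a 95% interval from -0.54 to 0.08 (limma adjusted p = 0.341). Serpinc1 and Serpinf2 were near background. Serpinc1, the gene of antithrombin, was at 0.0142, 0.0150, 0.0262 and 0.0164 on siScr 1, siScr 2, siErbB4 1 and siErbB4 2, and was not well above background on siScr 2. Serpinf2, the gene of alpha-2-antiplasmin, was at 0.0145, 0.0156, 0.0246 and 0.0204 in that order. Their differences between the numbers, -0.30 and -0.08, turned to 0.15 and 0.07 with normexp correction, so no direction is given for either.

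Within each transfection there was 1 array per number, so these differences carry no test. The sign of the replicate difference was the same in siScr and siErbB4 for 23 of 30 members. The same count was not made over all features, so it is not read as particular to the serpins. For 5 of the 6 called genes the difference was larger in siScr, and for Serpinb6b it was larger in siErbB4 (1.08 against 0.79 on the log2 scale). The medians in siScr and siErbB4 were -0.18 and -0.10 for clade a, -0.12 and -0.02 for clade b, and -0.40 and -0.67 for the other clades. Of the 7 tested members with a second probe that passed the filter, each second probe gave the same sign as the first, with -1.49 for Serpina3f, -1.11 for Serpina3i, -0.93 for Serpinf1, -0.10 for Serpinb6c, 0.12 for Serpina1a and 0.29 for Serpina1e besides Serping1. The second probe of Serpini1, which did not pass the filter and was well above background on 1 array, gave 0.0056 against -0.59 for the probe used.

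**Figure D3:**
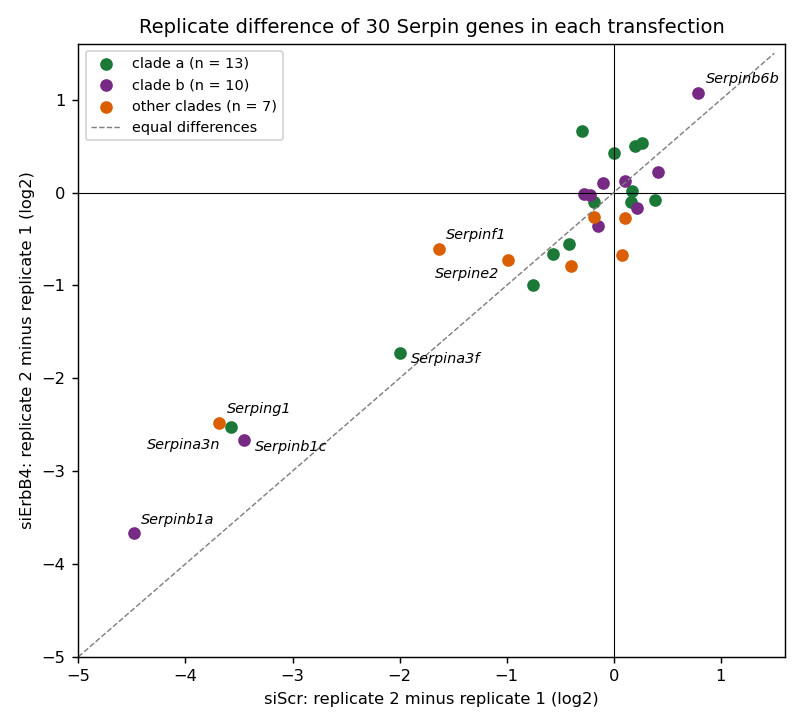
Log2 difference of replicate 2 from replicate 1 in siScr (horizontal) and in siErbB4 (vertical) for the 30 tested Serpin genes, 1 point per gene, coloured by clade, each difference from 1 array against 1. The dashed line marks equal differences, and Serpinb1a lies lowest at -4.48 in siScr and -3.67 in siErbB4.

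Genes that act with the serpins were counted from lists made for this comparison. Over all features 2.34% passed as lower and 2.89% as higher, with a median of 0.02. Of 19 tested genes of coagulation and fibrinolysis, 2 were lower and 3 higher in replicate 2, with a median of 0.03. The lower genes were Thbd, which encodes the thrombin receptor thrombomodulin (-1.86), and Plaur, which encodes the urokinase receptor (-1.14). The higher genes were Tfpi, the gene of tissue factor pathway inhibitor (1.56), Fgb, the gene of fibrinogen beta (1.18), and Proc, the gene of protein C (0.75), all by limma with Benjamini-Hochberg adjustment. The genes of the plasminogen activators, Plat and Plau, named after their values were seen, differed by -0.95 and -0.57 and did not pass (limma adjusted p = 0.110 and 0.183).

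None of 12 tested genes of a list of intracellular protease targets, which also holds the perforin gene Prf1, and none of 12 tested complement genes passed, with medians of 0.07 and -0.082. Ctsl, the gene of cathepsin L, differed by 0.29 (limma adjusted p = 0.210). The complement genes C2 and C1ra differed by -1.13 and -0.81 and C3 by 0.39 (limma adjusted p = 0.133, 0.141 and 0.144), so none of those tested joined Serping1 past the threshold. The filter left C1qc of the complement list and Ctss of the protease list untested. Both were well above background on both number 1 arrays and on neither number 2 array. On siScr 1 and siErbB4 1 C1qc was at 0.0488 and 0.0146, and Ctss at 0.0737 and 0.0367. Agt, which encodes angiotensinogen, a serpin whose symbol does not start with Serpin, differed by 0.26 (limma adjusted p = 0.311).

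Of 18 tested genes of the TGF-beta pathway, 4 were lower and none higher, with a median of -0.25. Among all features 2.34% passed as lower and 2.89% as higher, and 47% had a difference below 0. Tgfbi, a secreted TGF-beta target, differed by -2.50 (SE 0.26, limma adjusted p = 0.0245), Tgfb3 by -0.98, Thbs1, which activates latent TGF-beta, by -0.90, and Tgfb2 by -0.84. Of 24 tested genes of collagen folding and maturation, 2 were lower, 20 had a difference below 0 and the median was -0.30. The lower genes were Adamts2, which removes the amino-terminal propeptide of procollagen (-2.98, SE 0.28, limma adjusted p = 0.0208), and Creb3l1, a transcription factor of collagen secretion (-1.70, SE 0.22, limma adjusted p = 0.0308).

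Markers of several cell types moved with replicate number as well, and their part in the serpin differences was not tested. In these bulk samples fewer cells of a type and less RNA per cell cannot be told apart. Among all features 2.34% passed as lower and 2.89% as higher. Of 13 tested fibroblast markers (14 listed), 4 were lower in replicate 2 and none higher, with a median of -1.09. They were Postn (-1.89), Fn1 (-1.05), Pdgfra (-0.73) and Col1a1 (-2.27), the last at 23.7 on siScr 1, 15.1 on siErbB4 1, 4.67 on siScr 2 and 3.31 on siErbB4 2. The summed relative signal of this list was 91.8 and 72.4 on the number 1 arrays and 34.2 and 32.0 on the number 2 arrays. Of 7 tested smooth muscle markers (8 listed), 3 were lower, namely Acta2 (-1.22), Lmod1 (-1.12) and Tagln (-1.04), with a list median of -0.13. Cnn1 (-0.10), Des (-0.13), Cspg4 (-0.08) and Smtn (0.41) did not pass. The sums were 556 and 439 against 261 and 252, and were mostly the signal of Acta2 and Tagln, at 277 and 207 on siScr 1.

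Cardiomyocyte markers ran the other way, with 4 of 15 higher in replicate 2, against 2.89% of all features. They were Nppa (1.31), Myl3 (1.06), Tnni3 (0.97) and Ryr2 (0.69), and the list median was 0.58. The sums were 1710 and 1641 on the number 1 arrays against 2360 and 2168 on the number 2 arrays. Of 22 hepatic and visceral endoderm markers 17 were tested, with a median of 0.59, Dab2 lower (-0.70) and Afp higher (0.65) after adjustment, and sums of 14.6 and 15.9 against 21.0 and 22.1. Of its defining genes Apoa1 and Apoa4 were not well above background on any array, and Alb, the gene of albumin, was so only on siScr 1. Of 12 listed macrophage and blood markers, 7 were tested, with a median of -0.15 and 4 of 7 below 0, against 47% of all features. Tyrobp, which the filter left untested, was well above background on both number 1 arrays and on neither number 2 array. It was at 0.183 on siScr 1, 0.0722 on siErbB4 1, 0.0031 on siScr 2 and 0.0024 on siErbB4 2. Lyz1 (3.42) and Lyz2 (3.24) were higher, while Adgre1 (-2.35, limma adjusted p = 0.0684) and Fcer1g (-1.74, adjusted p = 0.142) did not pass. The sums of the list were 8.54 and 7.47 on the number 1 arrays against 12.5 and 11.2 on the number 2 arrays. The rise lay in Lyz1, at 0.487 and 0.333 against 4.43 and 4.22, and Lyz2, at 0.119 and 0.0756 against 0.954 and 0.842. Itgam, the brightest of the list, was at 6.33 and 5.79 against 5.93 and 5.01. No endothelial (9 tested), trophoblast (7) or neural (6) marker passed, with medians of -0.46, -0.13 and 0.06. The filter left the trophoblast marker Cdx2 untested, at 0.0287 on siScr 1, 0.0661 on siErbB4 1, 0.0046 on siScr 2 and 0.0065 on siErbB4 2. Cdx2, Ahsg (hepatic), Tcf21 (fibroblast) and Myh11 (smooth muscle), all untested, were well above background on both number 1 arrays and on neither number 2 array. No untested marker showed the reverse.

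**Figure D4:**
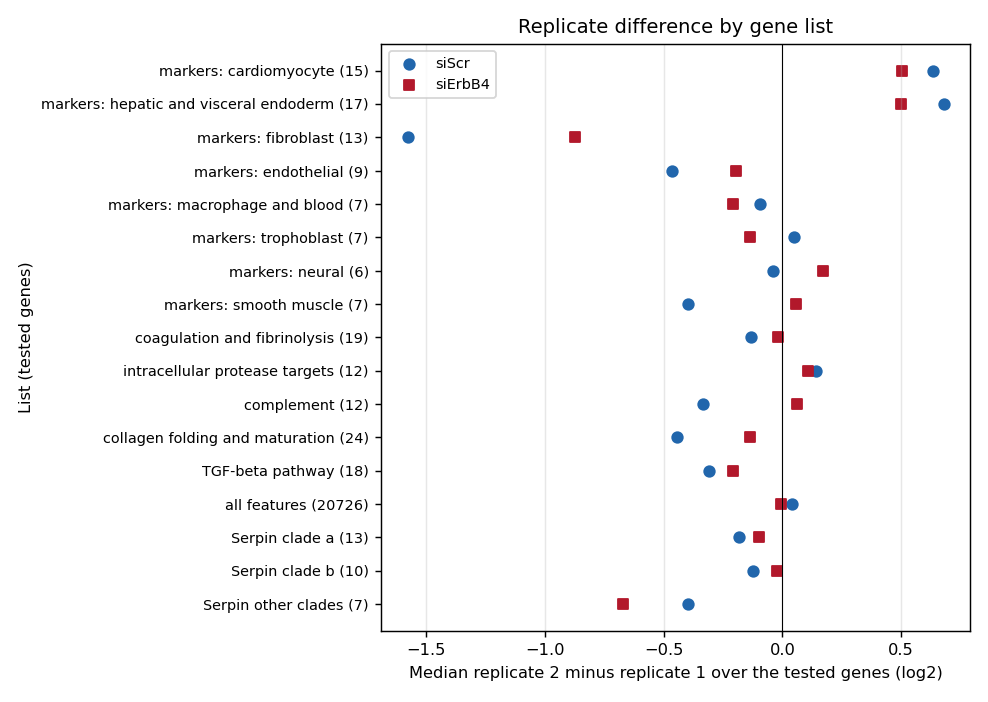
Median log2 difference of replicate 2 from replicate 1 over the tested genes of each list (number of genes in brackets), in siScr (circles) and siErbB4 (squares), 1 array against 1. Fibroblast markers lie at -1.58 and -0.87, cardiomyocyte markers at 0.64 and 0.50, and the Serpin genes outside clades a and b at -0.40 and -0.67.

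Between siErbB4 and siScr, the comparison the study was made for, no serpin gene passed. By limma with Benjamini-Hochberg adjustment 0 of 30 members and 0 of 20726 features (0%) had an adjusted p under 0.05, with 365 features and 2 members, Serpina3m and Serpinf2, at an unadjusted p under 0.05. Serpina3m and Serpinc1 entered the test only through the siErbB4 arrays, so a higher value there is partly built into their selection. The adjusted p of all 30 members was 1.00, and the lowest of any feature was 0.569. A difference of at least 0.58 in size was reached by 5 members, against 3.32% of all features. Arrays of the groups did not overlap for 9 of 30 members, against 29% of all features. Serpina11, Serpina3b, Serpina9, Serpinb6a and Serpinb6d were lower on both siErbB4 arrays, and Serpina10, Serpina3m, Serpinc1 and Serpinf2 higher.

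The difference was below 0 for 22 of 30 members, against 52.8% of all features, with medians of -0.30 for clade a, -0.10 for clade b and -0.12 for the other clades, against -0.01 over all features. Serpina3b was at 0.127 on siScr 1, 0.0952 on siScr 2, 0.0847 on siErbB4 1 and 0.0575 on siErbB4 2, lower in siErbB4 by 0.58 in replicate 1 and 0.73 in replicate 2. Its log2 difference was -0.66 (SE 0.27, 95% interval -1.41 to 0.10), and -0.40 with normexp correction. Serpina9 differed by -0.34 (SE 0.19) and Serpinb6a by -0.17 (SE 0.15).

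The members that were higher in siErbB4 without overlap were dim. Serpina3m, whose probe entered the test only through the siErbB4 arrays, was at 0.0121 on siScr 1, 0.0138 on siScr 2, 0.0172 on siErbB4 1 and 0.0244 on siErbB4 2, a difference of 0.66 (SE 0.23, 95% interval 0.04 to 1.29). Serpinf2 differed by 0.57 (SE 0.16, 95% interval 0.13 to 1.02). Serpinc1, which also entered the test only through the siErbB4 arrays, differed by 0.51 (SE 0.27). With normexp correction the 3 differences were 0.02, 0.07 and 0.08.

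For the genes that separated the replicate numbers, this comparison could not resolve even large differences. The fit had no block for replicate number, so the gap between the numbers counted as spread within each siRNA group and widened the intervals. Serpinb1a differed by -0.67 with a 95% interval from -6.29 to 4.96, Serpina3n by -0.89 from -5.15 to 3.36 and Serping1 by -0.53 from -4.85 to 3.79. Within replicate 1 all 5 genes that were lower in replicate 2 read lower in siErbB4 than in siScr, by 1.42 for Serpina3n, 1.13 for Serping1 and 1.07 for Serpinb1a on the log2 scale. Within replicate 2 the differences were -0.37 for Serpina3n, 0.07 for Serping1 and -0.26 for Serpinb1a. The direction of Serpinb1a and Serpina3n turned when siScr 1 or siErbB4 2 was left out: Serpinb1a ran from -2.91 to 1.58 and Serpina3n from -2.68 to 0.89. Leaving out 1 array unbalances the replicate numbers between the siRNAs, so the gap between the numbers enters these values. Within each number both genes read lower in siErbB4. Serpinh1 was measured more closely, at -0.12 with a 95% interval from -0.59 to 0.35, and Serpinf1 differed by -0.77 (SE 0.62), by -1.29 in replicate 1 and -0.26 in replicate 2.

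**Figure D5:**
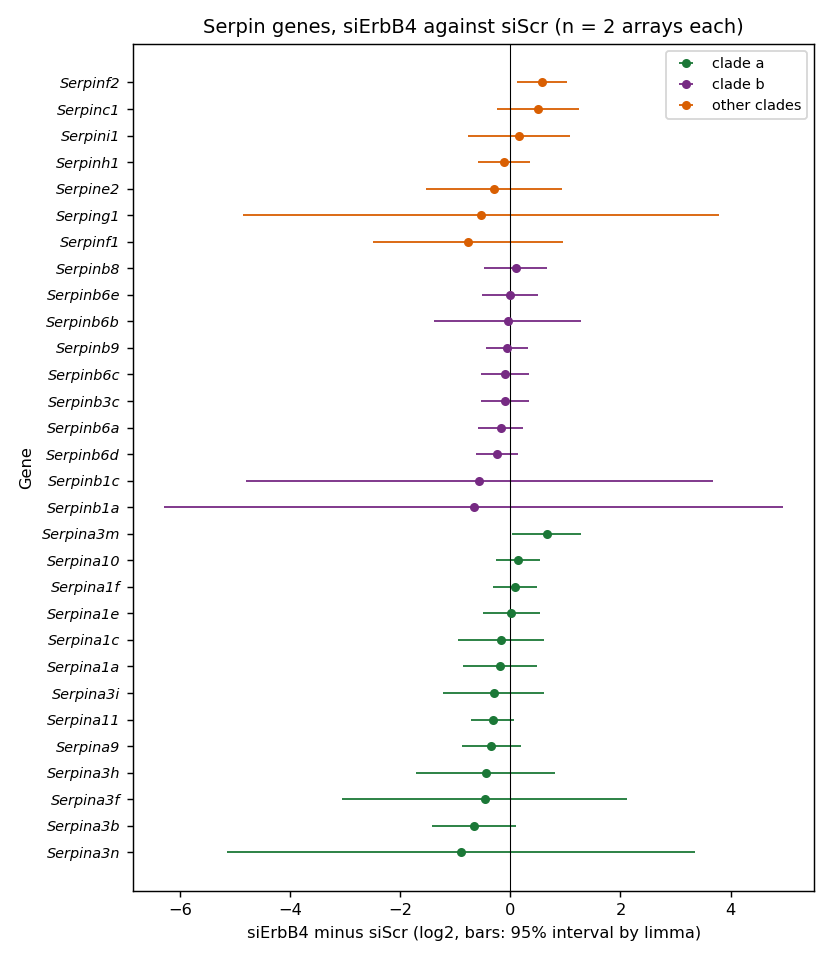
Log2 difference of siErbB4 from siScr for the 30 tested Serpin genes with the 95% interval by limma, 2 arrays per group, coloured by clade. The intervals of Serpina3m (0.04 to 1.29) and Serpinf2 (0.13 to 1.02) lie above 0 before adjustment over all features, and those of Serpinb1a, Serpina3n and Serping1 are the widest. Serpina3m entered the test only through the siErbB4 arrays, so its higher value there is partly built into its selection.

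In the same comparison no gene of any list passed. Over all features 52.8% were below 0, with a median of -0.01. The fibroblast list had a median of -0.45 with 13 of 13 genes below 0, the collagen folding list -0.28 with 22 of 24 below 0, and the hepatic list 0.33 with 3 of 17 below 0. For the fibroblast list the median was -0.79 in replicate 1, with 13 of 13 below 0, and -0.11 in replicate 2, with 9 of 13 below 0. For the collagen folding list it was -0.43 with 23 of 24 below 0 and -0.11 with 16 of 24 below 0. Among partners of the serpins, Gzmm, the gene of granzyme M, was at 0.0914 on siScr 1, 0.112 on siScr 2, 0.302 on siErbB4 1 and 0.255 on siErbB4 2. Both siErbB4 arrays were higher, by 1.46 on the log2 scale (SE 0.18, limma adjusted p = 1.00 by Benjamini-Hochberg). The caspase gene Casp4 differed by 0.62 and the granzyme gene Gzmk by -0.41. In the coagulation list F2, the gene of prothrombin, differed by 0.67 and Lrp1, a receptor that clears complexes of proteases and serpins, by -0.62, and none of these genes passed after adjustment by limma and Benjamini-Hochberg.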

How the data were processed

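Per the labels' protocols, Cy3-labelled cRNA was made from 200 ng of RNA, and the submitters' processing notes name Agilent Feature Extraction 10.7.1.1. The deposited intensity values were the authors' scanner output, already background-corrected in the processed signal column per the file headers. Control spots and outlier-flagged spots were left out, log2 signals of repeat spots were averaged, and each array's 75th percentile was subtracted (R 4.3.3, limma 3.58.1). Of 39429 probes, 25690 passed the filter on dim probes, giving 20726 features (14993 named through RefSeq). The deposited log2 table of the authors equalled these values within 0.00291, so its scale and centring are the same, with column medians of -3.81, -3.83, -3.84 and -3.86. Both comparisons were fitted with lmFit and eBayes on 2 arrays against 2, without a block. The precision was limited by the number of arrays and, between siRNAs, by the replicate differences left in the spread. The members and lists were chosen with earlier results of these data known. Members called, past a log2 difference of 1 (number) or 0.58 (siRNA), or among the 2 brightest of a clade have all arrays given, and up to 3 genes of a list with the lowest p, or those that passed, were named, with exceptions stated. Alternatives were quantile and normexp (offset 50) normalization, other filters, the mean of a gene's probes, the deposited table, blocks, and leaving out each array. The fit was tested on simulated data. A member of the family and a gene of the complement list are not reported here, and are left out of the counts of members and list genes.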

Additional observations from a re-analysis of the deposited data

Results flagged for a closer look

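Serpinc1 and Serpinf2 moved in opposite directions between replicate numbers in the 2 transfections. Serpinc1 differed by 0.080 in siScr and by -0.67 in siErbB4, and Serpinf2 by 0.11 in siScr and by -0.27 in siErbB4 (log2, replicate 2 minus 1). Each value sets 1 array against 1, the difference between transfections was not tested, and both probes were near background.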

How the results depend on the processing

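No siRNA call appeared under any alternative, the replicate block included (0 of 30 members and 0 of all features). Samples of one number deviated together (correlation 0.679), but 2 pairs show only a shared number. Between numbers, 6 members passed, 5 with quantile normalization (Serpina3n lost, adjusted p = 0.0503), 8 with normexp or a transfection block, and 0 without a filter on dim probes, when no feature passed against 1084 in all. Normexp gave 1873 features, a transfection block 1516, and a filter by replicate number, chosen after seeing the data, 7 members and a clade b median of -0.14. The median of the other clades between numbers was -0.32 with normexp, and between siRNAs -0.080 with quantile, -0.14 with normexp and -0.20 with probes above background on all arrays. Clade a was at 0.10 without the filter and -0.054 with all arrays required between numbers, and at -0.18 with normexp and -0.17 without the filter between siRNAs. Normexp turned Serpinc1 to 0.15 and Serpinf2 to 0.072 between numbers. The cause of these shifts was not tested. Leaving out 1 array gave 0 to 8 members and 0 to 1539 features between numbers, with medians of -0.12 to -0.059 (clade a), -0.19 to -0.0033 (clade b) and -0.65 to -0.42 (other), and between siRNAs of -0.31 to 0.055, -0.19 to -0.051 and -0.25 to 0.56. Directions that turned with 1 array left out were, between siRNAs, Serpina3f (-1.46 to 0.54), Serpina3i (-0.63 to 0.034), Serpina3n (-2.68 to 0.89), Serpinb1a (-2.91 to 1.58), Serpinb1c (-2.29 to 1.17), Serpinb6b (-0.58 to 0.49), Serpinb6c (-0.23 to 0.047), Serpine2 (-0.79 to 0.20), Serpinf1 (-1.59 to 0.045), Serping1 (-2.37 to 1.31), Serpinh1 (-0.25 to 0.017), Serpini1 (-0.24 to 0.56), and between numbers Serpina3m (-0.059 to 0.76), Serpina9 (-0.065 to 0.49), Serpinb6a (-0.26 to 0.013), Serpinc1 (-0.74 to 0.14), Serpinf2 (-0.46 to 0.30). Signals of Serpina3m, Serpinc1 and Serpinf2 were close to background. With 1 array left out the numbers are unbalanced between the siRNAs, so the gap between the numbers enters the siRNA differences. In the same way the siRNA gap enters the differences between numbers.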
